A study of Mus musculus with 20 samples.

Results

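Day 6 is the midpoint between days 4 and 8 in a 14-day differentiation of spherical neural masses grown from mouse embryonic stem cells. It is described here in the 6 libraries of days 4, 6 and 8 among the 20 of the series. The cells are ESD3, also called D3, an embryonic stem cell line of strain 129s2/SvPas that was kept on primary mouse embryo fibroblast feeders, grown into spherical neural masses and differentiated toward dopaminergic neurons. The control line carried an shRNA against luciferase and the HPRT knockdown line an shRNA against HPRT, both delivered by a retrovirus according to the labels and by lentiviral vectors with puromycin selection according to the methods of the study. Each of the 2 lines is a single line, and each line and day is 1 library of RNA pooled from cultures. No value below therefore has a replicate and no test was made, and the size of a difference is all that is given. The study left day 6 out of its pathway work as a discrepant time point.

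For every gene the deviation of day 6 is its log2 level on day 6 minus the middle of its log2 levels on days 4 and 8 in the same line, so that a steady rise or fall gives 0. A gene is called higher or lower on day 6 at a deviation of 1 or more in size, which is a 2-fold difference. Of 37561 genes in the tables, 19041 had reads and 13498 passed a filter on low values, a typical log2 normalised count of at least 4. Counting alone gives a deviation an error of 0.44 log2 at 16 normalised counts per library and of 0.11 at 256, and it leaves out the variation between cultures. Levels of single genes are given below in log2 relative to control day 4, which is set to 0.

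Embryonic stem cells that are led toward neurons pass through neural progenitors. Pluripotency factors such as Pou5f1 (Oct4) and Nanog are turned off, neurogenic factors are switched on for a short time, and neurons and later glia follow. Midbrain dopaminergic neurons arise from floor plate progenitors that use Foxa2, Lmx1a and En1 and end by making tyrosine hydroxylase, the product of Th. Skeletal muscle is a mesodermal tissue and no stage of this path. Its factors Myod1 and Myog bind E-box elements and act with MEF2 factors, which bind A/T-rich elements, on genes of the contractile apparatus. HPRT recycles hypoxanthine and guanine into purine nucleotides, and its loss in people causes Lesch-Nyhan disease.

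Of the gene lists used, skeletal muscle stood furthest above its neighbouring days on day 6, in the control line. That list was put together after its values were seen, so its rank follows in part from how it was made. The 250 bases before the start of 4 of its genes are shown because their levels moved together, as described further on. They are from RefSeq, build GRCm38.p6, on the strand of the gene, with the E-box CAGCTG and the MEF2-like element CTANNNNTA in capitals wherever either was found.
Chrna1, chr2:73580339-73580588, minus strand: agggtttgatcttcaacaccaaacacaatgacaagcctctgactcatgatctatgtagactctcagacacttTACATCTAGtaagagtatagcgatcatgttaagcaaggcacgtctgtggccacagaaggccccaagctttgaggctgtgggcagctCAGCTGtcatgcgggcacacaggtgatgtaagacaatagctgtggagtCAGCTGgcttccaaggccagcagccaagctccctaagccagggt
Myog, chr1:134289754-134290003, plus strand: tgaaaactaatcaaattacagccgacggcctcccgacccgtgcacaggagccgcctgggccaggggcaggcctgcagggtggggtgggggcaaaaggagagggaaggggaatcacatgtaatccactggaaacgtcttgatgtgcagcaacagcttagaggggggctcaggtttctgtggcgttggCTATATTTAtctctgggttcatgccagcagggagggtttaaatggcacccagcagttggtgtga
Ckm, chr7:19410844-19411093, plus strand: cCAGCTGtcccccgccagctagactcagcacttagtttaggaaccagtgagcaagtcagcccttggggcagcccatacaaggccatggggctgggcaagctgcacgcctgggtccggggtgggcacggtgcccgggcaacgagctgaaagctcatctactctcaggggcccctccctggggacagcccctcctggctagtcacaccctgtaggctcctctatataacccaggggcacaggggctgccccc
Acta1, chr8:123894776-123895025, minus strand: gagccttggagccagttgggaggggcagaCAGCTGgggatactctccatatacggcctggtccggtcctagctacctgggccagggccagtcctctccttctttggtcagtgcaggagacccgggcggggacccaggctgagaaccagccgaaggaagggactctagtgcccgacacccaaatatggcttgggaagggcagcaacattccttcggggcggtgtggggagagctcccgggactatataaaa

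Of the 22 skeletal muscle genes that passed the filter, 17 were matched to 18 promoters in that table. CAGCTG, which reads the same on both strands, was found in 9 of the 18 (50%), in 4271 of all 32851 promoters of the same length (13%) and in 5 of 33 promoters of pluripotency genes (15.2%). CTANNNNTA, searched on both strands, was found in 10 of the 18 (55.6%), in 6227 of all promoters (19%) and in 7 of 33 of the pluripotency genes (21.2%). The motifs do not overlap in the 4 promoters shown, and a match of letters says nothing of binding. The muscle shares describe a list chosen after its values were seen and were not tested.

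The targeted gene was low in the knockdown line on all 3 days, and least so on day 6. Hprt (NCBIM37 chromosome X, 50341314 to 50374836) stood at 0, -0.10 and -0.33 in the control line on days 4, 6 and 8, and at -4.94, -3.53 and -4.71 in the knockdown line. Its level on day 6 was thus 1.36 log2 above the middle of days 4 and 8 in the knockdown line, and 0.06 in the control line. Markers of the labelled cells were looked up among the genes passing the filter, which covers the whole series. Passing does not tell cell types apart, since 39 of 39 fibroblast and matrix genes and 37 of 39 pluripotency genes passed too. The filter was passed by 33 of 33 genes of neural progenitors and radial glia, 50 of 52 of neurons and 24 of 28 of dopaminergic neurons, but not by Slc6a3, the dopamine transporter, nor by Pitx3, a factor of mature dopaminergic neurons. Depths of the 6 libraries, as the scaling of the tables gives them, were 0.788 to 1.05 times that of control day 4, with the day 6 libraries at 0.985 and 0.94. Which libraries shared a sequencing lane is not given in the sources used here.

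In the control line day 6 stood apart from its neighbours in more genes than days 1, 2, 10 and 12, for which the same measure was taken. It was not taken for days 3 and 8, whose neighbours include day 4 or day 6. In that line 1405 of 13498 genes deviated by 2-fold or more (10.4%), 986 higher (7.3%) and 419 lower (3.1%). With each day set against the days before and after it, the same measure gave 558 genes for day 1 (4.13%), 154 for day 2 (1.14%), 154 for day 10 (1.14%) and 205 for day 12 (1.52%). The SD of the deviations over genes was 0.773 log2 on day 6 and between 0.282 and 0.444 on those 4 days.

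In the knockdown line day 6, set against days 4 and 8, gave a count within the range of days 1, 2, 10 and 12. There 1027 genes deviated (7.61%), 455 higher (3.37%) and 572 lower (4.24%), while the neighbouring-day measure gave 1229 genes for day 1 (9.11%), 869 for day 2 (6.44%), 958 for day 10 (7.1%) and 617 for day 12 (4.57%). Among the 8233 genes of the higher level class, with a log2 normalised count of typically 8 or more, the balance was the other way, with 171 higher and 110 lower. The SD over genes was 0.574 log2 on day 6 and 0.477 to 0.730 on the others. The deviations of days 1 and 2 span steps of 1 day and those of days 6, 10 and 12 steps of 2 days, and neighbouring days share libraries. The order of the lines depended on the reference: against the median of the other 9 days of the line, 1399 genes were called on day 6 in the knockdown line and 873 in the control line.

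**Figure D1:**
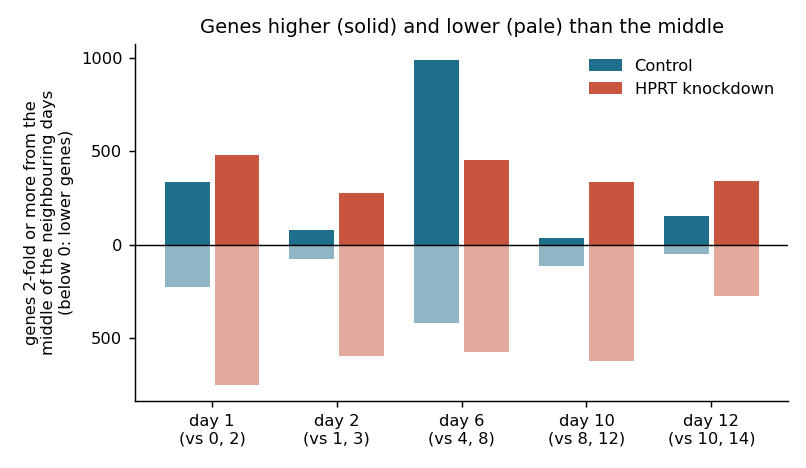
Number of genes, of 13498, that deviated 2-fold or more from the middle of the neighbouring days, on days 1, 2, 6, 10 and 12 in each line, higher and lower apart. The control line reached 1405 genes on day 6 and at most 558 on another day shown. In the knockdown line day 6 (1027 genes) lay between day 12 (617) and day 1 (1229).

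A deviation of 2-fold puts day 6 outside both neighbouring days unless these differ by at least 4-fold, so a stricter count is given of genes whose level on day 6 was 2-fold outside both. This held for 698 of 986 genes higher in the control line (70.8%) and for 191 of 419 lower (45.6%). It held for 231 of 455 genes higher in the knockdown line (50.8%) and for 244 of 572 lower (42.7%). Over all 10 days of the line, day 6 was the highest in 502 of the 986 and the lowest in 179 of the 419. In the knockdown line it was the highest in 353 of the 455 and the lowest in 228 of the 572. Among all 13498 genes, day 6 was the highest day of the control line in 1569 and the lowest in 841, and the highest day of the knockdown line in 2652 and the lowest in 2258.

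Genes near the threshold differed little across it. Ddr2, a collagen receptor, had a deviation of 1.00 in the control line and Ppfia4 one of 0.998. On the lower side Mycl1 was at -1.001 and Hic2 at -0.9999. In the knockdown line Arhgap27 was at 1.0001 and Shq1 at 0.9998, and Spint1 at -1.0004 and Lpl at -0.9986.

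Skeletal muscle genes were far above days 4 and 8 on day 6 of the control line. Of a list of 31 such genes, put together after their values were seen, 22 passed the filter, and 22 were higher on day 6 with deviations of 3.52 to 7.97 log2 and a median of 6.21, beside a median of -0.02 over all genes. Members low in most libraries fail the filter, so those that passed are not all of the list. Myog, the muscle regulatory factor myogenin (build NCBIM37, chromosome 1, 136186581 to 136189124, plus strand), was at 0, 7.60 and 2.98 on days 4, 6 and 8 in the control line and at -0.39, -0.91 and 1.13 in the knockdown line. Control day 6 was the highest of the 6 libraries, control day 8 came next, and the other 4 were low.

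The same order was seen along the contractile apparatus. Ttn, the giant spring protein titin (chromosome 2, 76542037 to 76820604), stood at 0, 7.21 and 2.80 in the control line and at -0.66, -0.79 and -0.14 in the knockdown line, and it was the gene with the largest positive deviation (5.82 log2) in that higher level class. Acta1, skeletal alpha-actin (chromosome 8, 126415669 to 126418651), stood at 0, 7.54 and 2.74, and at -1.64, -2.30 and -0.55. Chrna1, a subunit of the muscle acetylcholine receptor (chromosome 2, 73401272 to 73418395), stood at 0, 7.37 and 2.02, and at -3.18, -1.85 and -0.20. Each of these genes was at least 4 log2 above both neighbours in the control line on day 6 and lay below control day 8 in all 3 knockdown libraries.

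The 9 skeletal muscle genes that failed the filter pointed upward as well in the control line. Myod1, the factor that starts the muscle programme, had a deviation of 6.85 log2, Myf5 of 5.49, Myf6 of 3.49, and Myh2 and Myh4, adult fast myosins, of 6.28 and 8.32. Tnni2 was at 7.13, Chrng at 6.13, Cacna1s at 6.09 and Casq1 at 5.17. Genes this low on days 4 and 8 meet the floor of the tables, which understates their ratios.

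Genes used in the heart were divided. Troponin, actin and light chain genes of the heart that developing skeletal muscle also uses stood with the skeletal ones, with control deviations of 6.37 for Tnnt2, 6.10 for Tnnc1, 5.64 for Myl4 and 4.38 for Actc1. Tnnt2 stood at 0, 8.00 and 3.25 in the control line on days 4, 6 and 8, and Myh7, the slow myosin of heart and muscle, had a deviation of 1.801. Of 12 other heart genes, listed after the values were seen and without those just named, 3 passed the filter, and none of these was called: Myh6, the atrial myosin, had a control deviation of -0.29, Gata4 of -0.64 and Ryr2 of -0.17. Among those that failed the filter were Nppa at -0.34, Nkx2-5 at -0.36, Tnni3 at -0.61 and Tbx5 at -0.91, and Pln was at 0.98. These 12 leave out the heart genes that were high, so their lack of calls follows in part from the choice. In the broader list of muscle and heart genes, which shares members with both, 14 of the 17 that passed were higher in the control line, with a median of 5.64. Of 7 genes of muscle precursors 3 were higher and none lower. Among them Met, the receptor of hepatocyte growth factor, had a deviation of 2.07, Eya1 of 1.35 and Pax7, a satellite cell factor, of 1.03.

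The skeletal muscle genes were not high on day 6 alone. Their median in the control line, relative to day 4, was 0.67 on day 0 and 3.62, 4.51 and 5.79 on days 1, 2 and 3. Control levels of days 0 to 3 were reached through the tables of the knockdown line. The median then stood at 7.57 on day 6, at 2.77 and -0.28 on days 8 and 10, and at 5.32 and 7.31 on days 12 and 14. Day 14 was thus close to day 6, whereas days 4 and 10 were the low ones, and part of the deviation of day 6 is the low level of day 4. In the knockdown line the median was 2.38 on day 0 and between -2.10 and 0.08 on the later days. Set against the median of the other 9 days, the median deviation of these genes was 3.84 log2 in the control line. In bulk RNA fewer cells of a type and less RNA per cell cannot be told apart, here and in every result that follows.

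**Figure D2:**
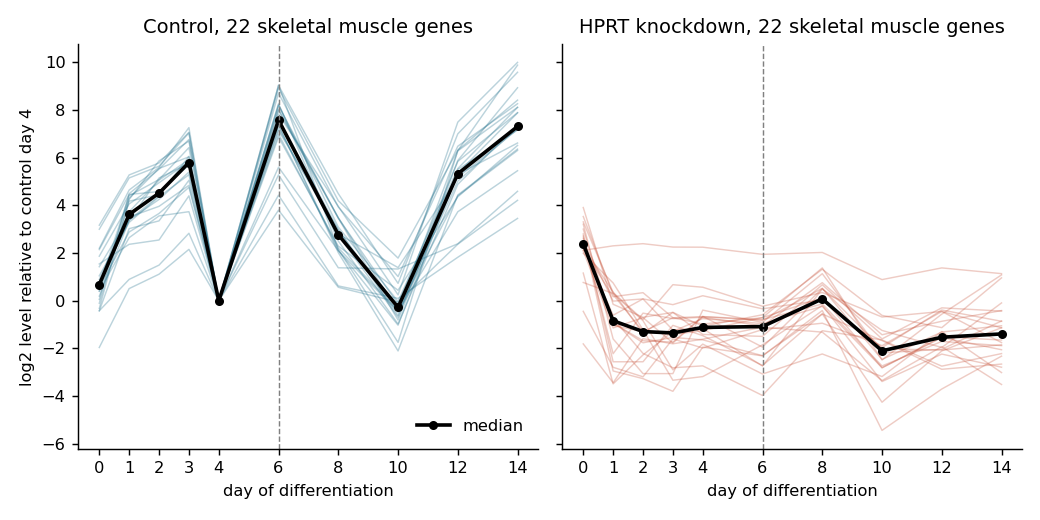
Log2 level of the skeletal muscle genes that passed the filter on the 10 days of each line, relative to control day 4, with thin lines for genes a thick line for their median and a dashed line at day 6. In the control line the median was 0 and 7.57 on days 4 and 6, and -0.28 and 7.31 on days 10 and 14, and after day 0 the knockdown line stayed between -2.10 and 0.08.

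Genes of the extracellular matrix and of astrocytes were also higher in the control line on day 6. Of 39 fibroblast and matrix genes 13 were higher and none lower, beside 7.3% and 3.1% of all genes, with a median of 0.72. Timp2 and Timp1, inhibitors of matrix metalloproteases, had deviations of 3.03 and 2.93, and S100a4, a calcium-binding protein of fibroblasts, had one of 5.71. Timp2 stood at 0, 3.08 and 0.10 in the control line and at 1.39, 0.83 and 1.39 in the knockdown line, so that control day 6 was the highest of the 6 and the other 2 control libraries the lowest. Of 27 astrocyte genes 12 were higher and none lower, with a median of 0.98. They included Cd44, a hyaluronan receptor (1.94), Hepacam, an astrocyte adhesion molecule (1.76), and Aldoc, a glycolytic aldolase (1.42). Against the other 9 days the medians of these lists were 0.21 and 0.29 in the control line, since days 4 and 8 were low for both.

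The genes named by size alone in the control line joined several functions. Beside Ttn they were Itga7, the laminin-binding integrin of muscle (5.14), Il33, a cytokine of the interleukin-1 family (4.48), Dmp1, a matrix phosphoprotein of mineralised tissue (4.28), Cryab, a small heat shock protein (3.94), and Cd82, a tetraspanin (3.76). Il33 stood at 0, 5.31 and 1.66 in the control line and at 2.16, 3.58 and 4.47 in the knockdown line, which climbed over the 3 days without a peak. Dmp1 stood at 0, 5.18 and 1.81, and at -1.74, 0.81 and 0.98. Cryab stood at 0, 3.96 and 0.05, and at 2.34, 1.47 and 1.51.

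Smaller groups gave the following in the control line. Of 48 lysosome genes 5 were higher, a share near the 7.3% of all genes, among them Cd63 (1.72), Ctsd (1.53) and Ctsb (1.44), and the median of the list was 0.39. Of 41 replication-dependent histone genes 3 passed the filter, and Hist1h4i (2.91), Hist1h2bc (2.63) and Hist1h1c (2.36) were higher. Nkx2-1, a factor of the ventral forebrain, stood at 0, 5.76 and -0.30 in the control line and was high throughout in the knockdown line, at 6.68, 6.03 and 7.44. The log2 ratio of knockdown to control of Nkx2-1 was thus 6.68, 0.27 and 7.74 on the 3 days. Ccnd1, cyclin D1 (1.95), and Cdon, a Hedgehog co-receptor (2.31), were higher too, among 4 of 20 genes of the Hedgehog list.

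Of the lists, pluripotency had the most members lower on day 6 of the control line. Of 37 that passed, 25 were lower and none higher, beside 3.1% and 7.3% of all genes. The median was -1.28 and the range -2.43 to 0.97. Tdh, the threonine dehydrogenase of mouse stem cells, stood at 0, -1.69 and 0.36 in the control line. Dppa5a, an RNA-binding protein of stem cells, stood at 0, -1.18 and 1.14, and Esrrb, an orphan nuclear receptor of the pluripotency network, at 0, -1.06 and 1.08. Control day 6 was in each case the lowest of the 3 control days. Tdgf1, a Nodal co-receptor (-1.65), Dnmt3b, a DNA methyltransferase (-1.71), and Mybl2, a cell cycle factor (-1.62), complete the genes named by size.

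Other groups on the lower side of the control line were germ cell and neurogenic genes. Of 7 two-cell and germ cell genes that passed, 6 were lower, among them Ddx4, an RNA helicase of germ cells (-2.27), Dmrt1 (-1.38) and Dazl (-1.21). Of 41 neurogenic factors 9 were lower and none higher, beside 3.1% and 7.3% of all genes, with a median of -0.67. Of 50 neuronal genes none was called, 8 had a deviation above 0 and the median was -0.51. Against the other 9 days the medians of these last lists were nearer 0, at -0.19 for both. DNA replication and ribosomal genes lay lower by small amounts, with medians of -0.43 and -0.36. Of the 49 replication genes 1 was lower, Orc1, a subunit of the origin recognition complex (-1.42).

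In the knockdown line pluripotency genes divided. Of the 37, 14 were higher on day 6 and 8 lower, beside 3.37% and 4.24% of all genes, with a median of 0.39. Against the other 9 days of the line the median was 1.26. Pou5f1 (NCBIM37 chromosome 17, 35642982 to 35647721) stood at -1.30, 1.18 and -1.003 in the knockdown line on days 4, 6 and 8, and at 0, -0.95 and 0.34 in the control line, so that day 6 was the highest of its 3 days in the knockdown line and the lowest in the control line. Prdm14, a repressor of differentiation in stem cells, stood at -1.76, 3.04 and 0.28 and had the largest deviation of the list (3.84). Those lower in the knockdown line included Dppa2 (-1.57), Dppa4 (-1.54), Dnmt3l (-1.34), Otx2 (-1.24), Lin28b (-1.23) and Dnmt3b (-1.13).

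Proliferation genes lay above days 4 and 8 on day 6 in the knockdown line, most of them by less than 2-fold. Of 49 DNA replication genes 15 were higher, 49 had a deviation above 0 and the median was 0.87, beside 0.01 over all genes. Dna2, a nuclease-helicase that trims Okazaki fragments, stood at -1.56, 0.12 and -2.12 in the knockdown line and at 0, -1.01 and -0.89 in the control line. Of 49 mitosis genes 6 were higher and 49 above 0, with a median of 0.71, among them Pttg1, securin (1.76), Espl1, separase (1.38), and Bub1, a checkpoint kinase (1.23). Of 50 ribosomal protein genes 2 were called higher, a share near the 3.37% of all genes, and 50 were above 0, with a median of 0.43. In the control line 1, 2 and 2 genes of these lists were above 0.

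Purine genes followed in part. Of 29 that passed, 6 were higher in the knockdown line and none lower, beside 3.37% and 4.24% of all genes. The median was 0.53. Those 6 were Hprt itself (1.36), Ppat, the first enzyme of purine synthesis (1.26), Adk, adenosine kinase (1.25), Pfas (1.14) and Atic (1.03), further enzymes of that synthesis, and Gda, guanine deaminase (1.51). In the control line Gda (2.28), Adssl1, the muscle form of adenylosuccinate synthase (2.40), and Ampd3, an AMP deaminase (1.63), were higher and the median was -0.20.

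The genes named by size in the knockdown line were led by Enpp3, an ectonucleotidase (2.51), and Pou5f1 (2.39). After them came Kit, the receptor of stem cell factor (2.38), Ifitm1, an interferon-induced membrane protein (2.25), Hmgn5, a nucleosome-binding protein (2.12), and Dna2 (2.02). Enpp3 stood at -0.54, 2.23 and 0.10 in the knockdown line and at 0, -0.36 and 0.93 in the control line. Kit stood at -0.46, 2.17 and 0.17, and at 0, 0.32 and 1.27. For both genes knockdown day 6 was the highest of the 6 libraries.

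Myelin genes were called in the knockdown line through a low day 4 more than through a high day 6. Of 31 oligodendrocyte and myelin genes 10 were higher and 1 lower, beside 3.37% and 4.24% of all genes, with a median of 0.50. Mag, a myelin-associated glycoprotein, stood at -1.46, 3.93 and 4.61 in the knockdown line, and Mog, a glycoprotein of the outer myelin sheath, at -1.75, 2.17 and 1.51. Days 6 and 8 were both high in both genes, so that the call rests on the step from day 4. Against the other 9 days the median of this list was -0.63.

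Of the lists, the dopaminergic one had the most members lower on day 6 in the knockdown line. Of 24 that passed, 14 were lower and none higher, beside 4.24% and 3.37% of all genes, with a median of -1.07. In the control line 1 was higher and 3 lower, with a median of 0.02. Th (NCBIM37 chromosome 7, 150078657 to 150117033) stood at 0.86, -2.71 and 1.54 in the knockdown line and at 0, -0.05 and 2.11 in the control line, and its knockdown deviation of -3.85 was the largest of the list. The floor plate and midbrain factors Foxa1 (-1.26), Foxa2 (-1.33), Lmx1a (-1.38), Lmx1b (-1.02), En1 (-1.10), En2 (-1.26) and Nr4a2 (-1.43) were lower, as was the signal Shh (-1.37). Slc6a3 and Pitx3, under the filter, were at -2.11 and -3.01. Against the other 9 days the median of the list was -0.17, since days 4 and 8 were the high ones for these genes.

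Part of the astrocyte, neurogenic and neuronal genes were lower as well in the knockdown line. Of 27 astrocyte genes 7 were lower and none higher, beside 4.24% and 3.37% of all genes, with a median of -0.77. Gjb6, connexin 30 (-2.15), and Aqp4, the water channel of astrocyte endfeet (-1.71), were among them. Aqp4 stood at 2.05, -0.88 and -0.26 in the knockdown line and at 0, 0.29 and -1.39 in the control line. Of 41 neurogenic factors 11 were lower, among them Dll4, a Notch ligand (-2.20), and Nhlh1, a factor of young neurons (-1.61), and 2 higher, of which Tlx3, a selector of excitatory neurons, had a deviation of 3.51. The neurogenic median of -0.71 became 0.06 against the other 9 days, and its levels on days 4, 6 and 8 were -0.52, -1.73 and -1.54, so that day 4 was the high one. Of 50 neuronal genes 5 were lower, among them Elavl4, an RNA-binding protein (-1.27), Celf3 (-1.23) and Chgb, a granin of secretory granules (-1.22).

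In the higher level class, among genes with agreeing tables, the lowest of the knockdown line were Slc6a11, a GABA transporter of astrocytes (-2.12), Krt19, a keratin (-1.89), Aqp4, Car3, a carbonic anhydrase (-1.62), T, brachyury (-1.61), and Igdcc3, an immunoglobulin superfamily receptor (-1.58). T stood at 3.47, 1.57 and 3.03 in the knockdown line and at 0, -0.11 and -0.71 in the control line. Knockdown day 6 was the lowest of the 3 days of that line and still above the 3 control libraries.

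Of 13498 genes 126 were called the same way in both lines (0.933%), 32 higher (0.237%) and 94 lower (0.696%). The 94 were 22.4% of the genes lower in the control line, beside the 4.24% of all genes lower in the knockdown line. They were 16.4% of the genes lower in the knockdown line, beside 3.1% of all genes lower in the control line. The 32 were 3.25% of the genes higher in the control line, beside 3.37% of all genes higher in the knockdown line. They were 7.03% of the genes higher in the knockdown line, beside 7.3% of all genes higher in the control line. Among those higher, Dmp1 had deviations of 4.28 in the control line and 1.25 in the knockdown line, and Cldn11, a tight junction protein of myelin, of 1.19 and 1.23. In the knockdown line Dmp1 stood at -1.74, 0.81 and 0.98 and Cldn11 at 0.09, 3.07 and 3.71. Day 6 was thus below day 8, and both knockdown calls rest on the step from day 4. Against the other 9 days the knockdown values were 0.07 and -0.64. Among those lower were Krt8, a keratin of simple epithelia (-1.59 and -1.57), Slit1, an axon guidance ligand (-1.35 and -1.49), Igdcc3 (-1.21 and -1.58) and Lin28b, a blocker of let-7 processing (-1.18 and -1.23).

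Genes of the Y chromosome stood out among the genes higher in both lines. Ddx3y, an RNA helicase, stood at 0, 3.70 and -0.93 in the control line and at 3.25, 7.04 and 3.06 in the knockdown line, with deviations of 4.17 and 3.97. Eif2s3y, a translation initiation factor, had deviations of 4.35 and 3.85, from tables that disagree by more than 0.1. Day 6 was the highest of the 3 days in both lines. Of the 9 Y genes listed after the values were seen, these 2 passed the filter, Uty had deviations of 3.13 and 4.32 under the filter and Kdm5d of 3.15 and 2.39, and the other 5 lay between -0.37 and 0.06. Over the 10 days Ddx3y was not steady in either line. It ranged from -0.93 on day 8 to 5.68 on day 1 in the control line, and from 1.83 on day 14 to 7.04 on day 6 in the knockdown line.

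Genes called in opposite directions numbered 151 (1.12%), with 104 higher in the control line and lower in the knockdown line (0.77%) and 47 the other way (0.348%). Without the filter on low values the counts were 369 in opposite directions and 376 in the same one. The 104 were 10.5% of the genes higher in the control line, beside 4.24% of all genes lower in the knockdown line. The 47 were 11.2% of the genes lower in the control line, beside 3.37% of all genes higher in the knockdown line. In the higher level class, among genes with agreeing tables, the first arrangement was led by Slc6a11 (1.89 and -2.12), Car3 (2.32 and -1.62), Ppp1r3c, a glycogen-targeting subunit of protein phosphatase 1 (1.34 and -1.54), and Atp1b2, a sodium pump subunit of glia (1.35 and -1.49). The other was led by Tdh (-1.88 and 1.49), Mycn (-1.31 and 1.41), Nanog (-1.44 and 1.32) and Sall4 (-1.27 and 1.45), all of them genes of stem cells or of proliferation. Nanog, a core pluripotency factor, stood at 0, -1.01 and 0.85 in the control line and at -1.50, 0.22 and -0.58 in the knockdown line. Its log2 ratio of knockdown to control was -1.50, 1.24 and -1.43, so that only on day 6 was it higher in the knockdown line of the 3 days.

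**Figure D3:**
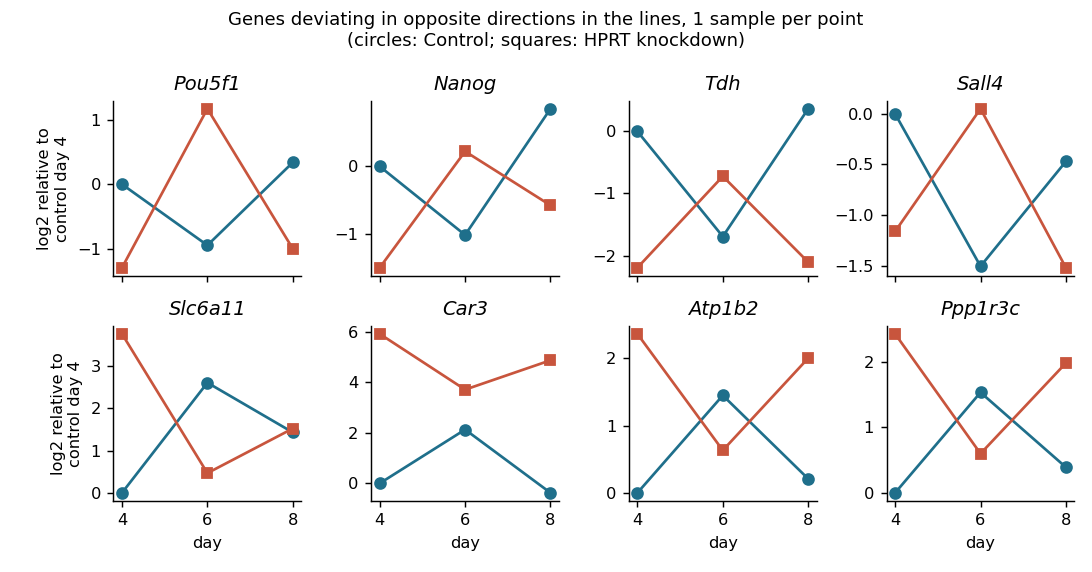
Log2 level on days 4, 6 and 8, relative to control day 4, of 8 genes whose deviations had opposite signs in the control line (circles) and in the knockdown line (squares), 1 library per point. On day 6 Slc6a11 was at 2.61 in the control line, its highest of the 3 days, and at 0.47 in the knockdown line, its lowest, and Nanog was at -1.01, its lowest, and at 0.22, its highest.

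Over all 13498 genes the deviations of the lines had a Pearson correlation of -0.17, across genes of the same 6 libraries and given as a description. Of genes higher in the control line 29% were above 0 in the knockdown line, against 50.8% of all genes. Of genes higher in the knockdown line 25.5% were above 0 in the control line, against 48.3% of all. For genes lower in the control line the share above 0 in the knockdown line was 38.2%, and for genes lower in the knockdown line the share above 0 in the control line was 46.5%.

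**Figure D4:**
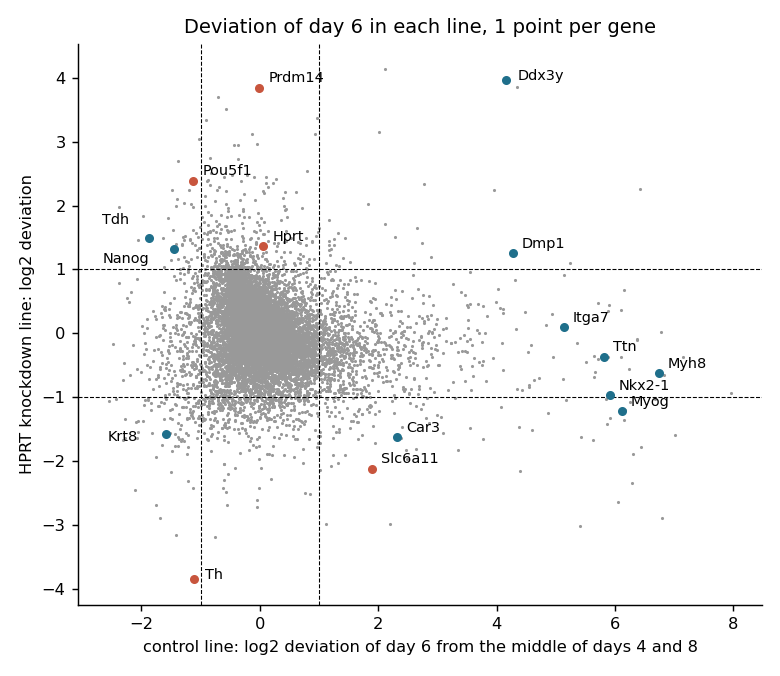
Deviation of day 6 in the control line (horizontal axis, log2) against that in the knockdown line (vertical axis, log2) for 13498 genes, with lines at 2-fold. The points reach further to the right, where skeletal muscle genes lie at 3.52 to 7.97, and 151 genes lie in the outer corners of opposite sign against 126 in those of the same sign.

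The difference between the lines was not the same on day 6 as on the days around it. The log2 ratio of knockdown to control had a correlation across genes of 0.68 between days 4 and 8, with the same sign in 77.8% of genes. It was 0.12 between days 4 and 6 (43.2% of the same sign) and 0.35 between days 6 and 8 (48.6%), whereas that of days 10 and 12 was 0.80 and that of days 12 and 14 was 0.85. With days 0, 1, 2 and 3 day 6 had -0.08, 0.04, 0.29 and 0.47, where day 4 had 0.62, 0.55, 0.63 and 0.62. With days 10, 12 and 14 day 6 had 0.27, 0.47 and 0.55, where day 4 had 0.42, 0.40 and 0.32. The share of genes of the same sign on these days ran from 37.7% to 54.1% for day 6. For day 4 it ran from 63.9% to 78.8%. Of 698 genes at least 2-fold higher in the knockdown line on both days 4 and 8, 262 (37.5%) were on the control side on day 6, 82 of them by 2-fold. Of 368 at least 2-fold lower, 98 (26.6%) had changed sides, 28 by 2-fold.

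The 7 days that share no library with these values (0, 1, 2, 3, 10, 12 and 14) show how the called genes differed between the lines at other times. Of the 986 genes higher on day 6 in the control line, 682 (69.2%) were higher in the knockdown line on the mean of those days, with a median of 0.45 log2. Of the 419 genes lower in the control line 68 were (16.2%, median -1.25). Of the 455 genes higher in the knockdown line 84 were (18.5%, median -0.82), and of the 572 lower 296 were (51.7%, median 0.07), against 50% of all genes. Across genes the control deviation and this mean ratio had a correlation of 0.21 and the knockdown deviation one of -0.19. Median exonic length was 3948 and 3220 bases in genes higher and lower in the control line, 3448 and 3741 in the knockdown line and 3909 in all genes. By chromosome, the share of genes called ran from 7.6% to 13.2% in the control line and from 5.07% to 10.3% in the knockdown line.

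**Figure D5:**
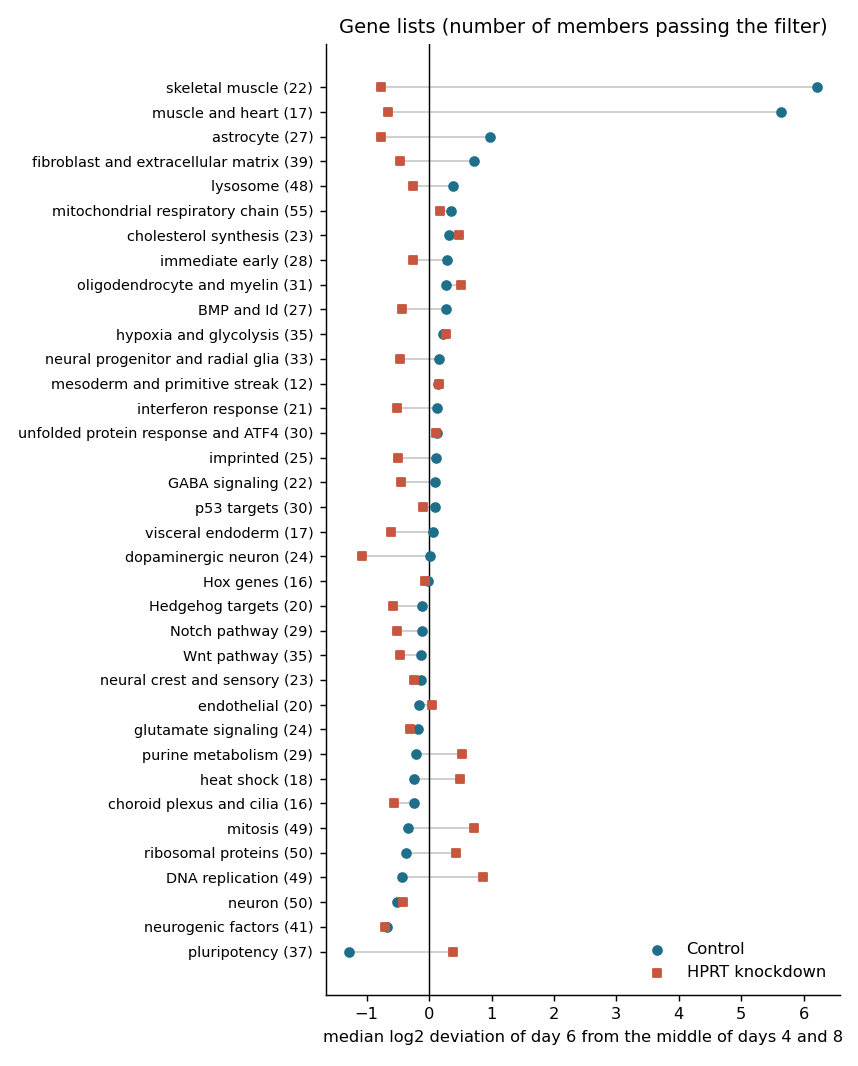
Median deviation of day 6 (log2) of each gene list in the control line and in the knockdown line, over the members that passed the filter. Skeletal muscle lies at 6.21 and -0.77, pluripotency at -1.28 and 0.39, astrocyte at 0.98 and -0.77, DNA replication at -0.43 and 0.87, and dopaminergic neuron at 0.02 and -1.07.

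Further lists were called in small numbers. Over all genes 7.3% were higher and 3.1% lower in the control line, and 3.37% higher and 4.24% lower in the knockdown line. In the control line 5 of 33 progenitor genes were higher and 2 lower, with Nes, nestin, at 1.89 and Pax6 at -1.30, and in the knockdown line 5 were lower and none higher. Of 28 immediate early genes 5 were higher and 2 lower in the control line, with Egr3 at 5.14 from tables that disagree by more than 0.1. Of 25 imprinted genes 4 were higher in the control line, among them Igf2, a growth factor (3.27), and Peg3 (1.62). In the knockdown line the Wnt list (35 passed) had 3 higher and 8 lower, the Notch list (29) had 3 lower, the BMP list (27) had 1 higher and 4 lower, and the GABA list (22) had 1 higher and 5 lower. Endothelial genes were mixed in the control line, with 2 higher, among them Cd34 (3.80), and 4 lower. Genes of p53 targets, of the unfolded protein response and of cholesterol synthesis had at most 1 member called in each direction in either line, and none of 55 genes of the mitochondrial respiratory chain was called.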

How the data were processed

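RNA of each line and day was sequenced once (TruSeq kit, Illumina HiSeq, 50 cycles), and the authors aligned reads to NCBI37/mm9 with CASAVA 1.8.2 and ELAND and normalised counts in Avadis NGS with DESeq. Their deposited tables hold log2 values of 2 libraries, centred on the mean of the pair and normalised apart for each of the 28 tables, so that a log2 ratio is all that each gives. A normalised count of 1 or less enters as 0 on the log2 scale, which understates ratios of low genes. Raw counts and total depths were not analysed here, and relative depths come from the scaling of the tables.

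The step of each line from day 4 to 6 and from 6 to 8 was the later minus the earlier column of 4 tables, and the deviation of day 6 was (the former minus the latter)/2. Knockdown levels relative to control day 4 add the knockdown against control table of the same day, so they can differ slightly from the deviation, which uses the tables of the knockdown line. The typical level of a gene was read from the rounding step of its values, since single-precision centring keeps the size of the number it was taken from. Of the genes passing the filter 373 had tables that disagree by more than 0.1 around these days. The arithmetic was checked on simulated data.

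Named genes were the 6 largest in each direction of each line and the 4 largest of each arrangement in both lines, among those of a typical log2 count reaching 8 and with agreeing tables, up to 3 genes of each of 38 lists, and the genes nearest the threshold. Further list members named beside these, and 4 further lists (skeletal muscle, heart muscle, muscle precursor, Y chromosome), were chosen after their values were seen. All members and lists were chosen with earlier results of these data known. Positions are from NCBIM37, where 12946 genes (95.9%) had 1 position, and promoters from RefSeq GRCm38.p6. Some genes are not reported here. With 1 library per line and day there was no test. Alternatives were other filters on low values, other references for day 6, another centring, other tables and the removal of genes with disagreeing tables or in the muscle lists. Python 3.11.15 with NumPy 2.4.6 and pandas 2.3.3 was used.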

Additional observations from a re-analysis of the deposited data

Results flagged for a closer look

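Between the lines, 28 of the genes named by the rule or listed above deviated 2-fold or more on day 6 in opposite directions. Each line has 1 library per day, and the difference was not tested. The values that follow are the control deviation minus the knockdown deviation, in log2.

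Muscle genes formed the largest set: Atp2a1, a calcium pump of muscle (8.62), Tmem8c, the fusion factor myomaker (8.60), Chrnd (8.23), Tnnc2 (8.19), Tnnt3 (7.70), Acta1 (7.37), Myog (7.33), Myh3, embryonic myosin (7.33), and Ckm, muscle creatine kinase (6.88). For Chrnd, Tmem8c and Tnnc2 the tables disagree by more than 0.1. In all 9 the control line was far above days 4 and 8, whereas knockdown deviations lay between -2.34 and -1.03 at levels near the floor.

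Genes of glia and other tissues with a positive difference were Tbx1 (4.13), Slc6a11 (4.01), Car3 (3.94), Ifi44 (3.27, from tables that disagree), Gjb6 (3.17), Ppp1r3c (2.88), Atp1b2 (2.84) and Aldh1a1, a retinaldehyde dehydrogenase (2.64).

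A negative difference, with day 6 below the middle of days 4 and 8 in the control line and above it in the knockdown line, was found for the stem cell genes Pou5f1 (-3.51), Tdh (-3.37), Nodal (-3.35), Nanog (-2.76), Sall4 (-2.73) and Mycn (-2.71), and for Dmrt1 (-4.07), Hoxa10 (-3.71), Ifitm1 (-3.45), Orc1 (-2.81) and Mmrn2 (-2.75). Hoxa10 stood at -1.66, 3.09 and 3.49 in the knockdown line, so its call there rests on the step from day 4. Orc1 stood at -1.17 on each of days 0 to 4 of that line, and at -3.31 in both lines on day 14. Identical values can arise where both libraries of a table sit at the floor, so the size of its difference is uncertain.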

How the results depend on the processing

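The counts of genes depended on the filter and on the reference for day 6. At a typical log2 count of at least 8, 457 of 8233 genes were called in the control line (5.55%) and 281 in the knockdown line (3.41%), 15 in the same direction and 26 in opposite ones. With no filter the counts were 2794 of 19041 (14.7%), 2188 (11.5%), 376 and 369, so that the order of same and opposite directions turned. With day 6 past 2-fold outside both neighbours they were 889, 475, 26 and 52. Against the median of the other 9 days, an alternative chosen after seeing the data, 873 genes were called in the control line and 1399 in the knockdown line, so that the knockdown line then had more. Centring, other tables, agreeing tables and the removal of the muscle lists (1380 genes, also chosen after seeing the data) kept the counts within 1.5 times. Of 494 alternative list medians 393 moved by less than the counting error of 0.11 log2 and 101 by more, 56 of them against the other 9 days, where the median of 9 of 42 lists changed sign in the control line and of 5 in the knockdown line, the myelin list in both. No list median of 2-fold or more changed sign, nor did a called named gene through another centring or other tables. Against the other 9 days called values of some named genes did change sign. Among them were Cldn11 (1.23 and then -0.64) and Chgb (-1.22 and then 0.52) in the knockdown line. That reference is not among the alternatives that follow for named genes. Of 712 alternative values of named genes 4 moved by more than the counting error, those of Grm8 (-0.63 and -1.20 in the control and knockdown lines) and Ifi44 (3.73 and -4.60) through other tables. The cause of these shifts was not tested. No paired analysis was possible because the deviation of day 6 is 1 value for each line, which no second pair of libraries repeats.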
